A study of Mus musculus with 12 samples.

Results

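The course of gene expression between 3 h and 6 h of activation was followed in mouse CD4+ CD25- T cells given MAZ1310, an inactive derivative of halofuginone (HF). The members are the 3 arrays of cells given 10 nM MAZ1310 for 6 h and the 3 arrays of cells given 10 nM MAZ1310 for 3 h, chosen by their labels, 6 of the 12 arrays in all. The other 6 arrays hold cells given 10 nM HF for 3 h or 6 h and enter only where the 2 courses are compared. All groups were C57B/6J cells stimulated with antibodies to CD3 and CD28 on coated wells, and all were cultured with TGFb and IL-6. CD4+ CD25- cells are helper T cells from which cells with the IL-2 receptor alpha chain, regulatory T cells among them, have been set aside. By the labels the 6 h group differs from the 3 h group only in time, 3 further hours of stimulation with the compound present throughout. Scan dates and batches are not stated, so a batch difference between the 2 times could not be told apart from time. Unstimulated cells and cells without either compound were not analysed here. The labels call the arrays biological replicates. They do not state the age of the mice or which animals or cultures each replicate came from. The p-values therefore reflect the spread among these arrays, and whether it is a spread among animals is not known.

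A T cell that meets antigen first switches on immediate early transcription factors, then cytokine and cytokine receptor genes, and then the machinery of growth and cell division. Many of the first genes code for proteins that shut the signal down again. TGFb acts through SMAD proteins and IL-6 acts through the receptor subunits IL6RA and GP130 and the factor STAT3. Together the 2 cytokines direct naive helper cells toward the Th17 fate, which rests on factors such as RORa, MAF, BATF and IRF4 and ends in IL-17 secretion. Interferon genes form another early program, driven by STAT and IRF factors.

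Values are intensities, the brightness of a probe set on a linear scale after normalization by RMA. A change is the log2 fold change, the mean log2 intensity at 6 h minus that at 3 h, and it is given ± SE with 3 arrays a group. A gene was called when limma's p, adjusted over all 18193 genes by the Benjamini-Hochberg method, lay under 0.05, and "rose" and "fell" are used only of called genes. Array medians lay between 97.3 and 102 intensity units, and arrays of one group had correlations across genes of 0.992 to 0.996 (3 h) and 0.996 to 0.997 (6 h). RMA brings all arrays to one distribution, so a rise or fall of all transcripts together would not be seen. No detection calls were used, and the change of a gene near background is understated. In RNA from many cells, fewer cells of a type and less RNA per cell cannot be told apart.

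In the 3 further hours 3595 genes changed, 19.8% of those tested. Of these, 2205 rose, 12.1% of all genes, and 1390 fell, 7.64%. Most changes were small: the median was 0.52 among genes that rose and -0.52 among those that fell, and the median over all genes was -0.0058. Changes of at least 2-fold were found for 161 genes that rose and 210 that fell. The 3 arrays of one time did not overlap with the 3 of the other for 5554 genes, 30.5% of those tested, and 3516 of these were called. Since 3595 genes were called in all, absence of overlap adds little to a call. Leaving out single arrays gave 2858 to 3592 called genes. With 3 h replicate 2 left out, however, 266 genes rose at least 2-fold, against 161 with it. As a sign of RNA quality, on the log2 scale the 3' minus 5' signal of actin's control probe sets was 1.03 ± 0.220 (SD, n = 3) at 3 h and 0.864 ± 0.139 (SD, n = 3) at 6 h. That difference was lower at 6 h in each of the 3 pairs of equal number, and the exact two-sided permutation test gave p = 0.4, with 0.1 the smallest that 3 against 3 arrays allow. With this actin measure and the replicate number both in the fit, 1883 genes were called, 1002 higher and 881 lower. Of the 165 named genes called below, 30 were not called in that fit (adjusted p = 0.0501 to 0.671): Cd5, Ccr8, Nfil3, Nop10, Gar1, Nhp2, Rfc4, Ccnb2, Myc, Mnt, Mxd3, Aldoa, Sdhb, Suclg1, Slc1a5, Slc7a1, Tars, Farsb, Eif3a, Psmb3, Psmb6, Psmb5, Psma6, Hspe1, Bcl2l11, Bbc3, Egr2, Ccnd3, Irf4 and Cd52. Averaging all probe sets of a gene ended the calls of 11 (adjusted p = 0.069 to 0.56): Il21, Nfatc2, Top2a, Mxd3, Slc6a9, Farsb, Eif3a, Rps6, Fdft1, Cd4 and Prf1. With the brightest probe set without a suffix, Trim12a, Top2a, Slc2a3, Idh2, Farsb and Prf1 were not called. The counts of each gene list stand against the 12.1% of all genes that rose and the 7.64% that fell.

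**Figure D1:**
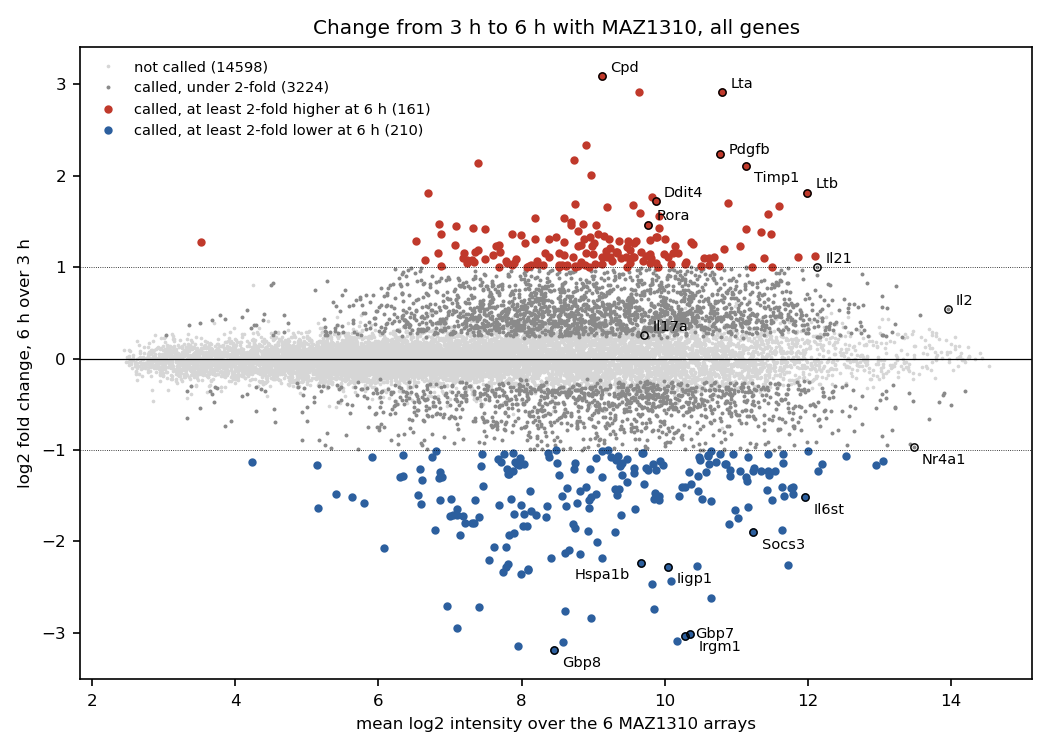
Log2 fold change from 3 h to 6 h with MAZ1310 against the mean log2 intensity over the 6 MAZ1310 arrays, 1 point per gene, with called genes of at least 2-fold in colour and dotted lines at 2-fold. The 210 genes that fell at least 2-fold reach down to -3.19 (Gbp8), and the 161 that rose reach up to 3.09 (Cpd).

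Marker genes of the labelled cell type and of others were summed per array to follow them over time. Levels of different probe sets cannot be compared, so the sums say nothing of which cells were more frequent. Among 8 T cell markers, the summed intensity per array was 22654 to 30621 at 3 h and 24652 to 26568 at 6 h. The same sum was 1396 to 1909 and 1313 to 1669 over 8 B cell markers, and 1096 to 1268 and 1023 to 1221 over 11 myeloid markers. For 8 markers of CD8 T or NK cells it was 1072 to 1313 and 1049 to 1156, and for 4 erythroid markers 354 to 362 and 294 to 351. Genes of MHC class II presenting cells summed to between 1760 and 2698 at 3 h and between 1158 and 1922 at 6 h over 7 genes. RMA values are never 0, so no defining marker is listed at 0. Cd5, a negative regulator of T cell receptor signals, rose (0.59 ± 0.11, adjusted p = 0.00078). Cd2, an adhesion receptor (-0.68 ± 0.16, adjusted p = 0.0059), Cd28, the costimulatory receptor (-0.56 ± 0.12, adjusted p = 0.003), and Cd4, the coreceptor for MHC class II (-0.36 ± 0.11, adjusted p = 0.036), fell. The call of Cd4 was lost without any of 4 arrays, with -0.28 and adjusted p = 0.15 without 3 h replicate 2, the largest p, and 0.14, 0.12 and 0.13 without 3 h replicate 1, 6 h replicate 1 and 6 h replicate 3. Without 3 h replicate 3, 6 of the 8 T cell markers were called lower in place of 3. Among B cell markers Cd79b, part of the B cell receptor, fell from 48.4 to 55.9 units to 34.0 to 40.3 (-0.46 ± 0.10, adjusted p = 0.0046). Prf1, the pore-forming protein of cytotoxic cells, fell by a similar step (-0.44 ± 0.13, adjusted p = 0.024), a call that was lost without 3 h replicate 1 or 6 h replicate 3 (adjusted p = 0.12 for both), and another probe set gave a change of 0.11. No myeloid, class II or erythroid marker was called. The largest values there were -0.61 ± 0.28, adjusted p = 0.17 for H2-Ab1 and -0.57 ± 0.28, adjusted p = 0.2 for H2-Aa, both chains of MHC class II, -0.36 ± 0.18, adjusted p = 0.22 for Cd14, a monocyte receptor for bacterial products, and -0.30 ± 0.18, adjusted p = 0.33 for Mpeg1, a macrophage pore protein. Slc4a1, the anion exchanger of red cells (-0.23 ± 0.12, adjusted p = 0.23), and Alas2, the first enzyme of red cell heme synthesis (-0.21 ± 0.10, adjusted p = 0.2), were also not called. Without 3 h replicate 2, 2 myeloid, 1 class II and 1 erythroid marker were called lower, among them Cd14 (-0.61, adjusted p = 0.01) and Alas2 (-0.32, adjusted p = 0.034). Without 6 h replicate 1, 1 class II and 2 CD8 or NK markers were called lower, and without HF 3 h replicate 2, 2 CD8 or NK markers.

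Genes induced by interferon had the lowest median change of the 34 gene lists. Of 20 measured members of a list of interferon-inducible genes 18 fell and 0 rose, with a median change of -1.44, against 7.64% of all genes that fell. Members of that list ranged from -3.02 (Irgm1) to -0.13 (Oasl1), and the 2 that were not called were Oasl1 and Mx1 (-0.23), both named for that reason after their values were seen. Their promoters were searched for the motifs of interferon signalling. The sequences below are the 160 bases before the RefSeq start of 5 genes on the build GRCm38.p6, printed 5' to 3' on the gene's own strand. Capitals in the first 3 mark the letters GAAANNGAAA on either strand, the core of the interferon-stimulated response element (ISRE) to which STAT and IRF factors bind. Capitals in the last 2 mark TTCNNNGAA, the core of the gamma-activated site (GAS) to which STAT dimers bind. Irf1, a transcription factor of the interferon response (-1.66), lies outside the rule for named genes and was shown for its site after its values were seen.
Irgm1 (chr11:48871421-48871580, minus strand): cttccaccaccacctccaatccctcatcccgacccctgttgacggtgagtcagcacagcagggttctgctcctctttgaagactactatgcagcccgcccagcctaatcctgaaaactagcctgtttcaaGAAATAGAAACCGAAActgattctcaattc
Gbp7 (chr3:142530176-142530335, plus strand): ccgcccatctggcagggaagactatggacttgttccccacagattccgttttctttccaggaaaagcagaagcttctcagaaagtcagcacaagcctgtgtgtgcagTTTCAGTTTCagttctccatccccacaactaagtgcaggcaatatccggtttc
Igtp (chr11:58199396-58199555, plus strand): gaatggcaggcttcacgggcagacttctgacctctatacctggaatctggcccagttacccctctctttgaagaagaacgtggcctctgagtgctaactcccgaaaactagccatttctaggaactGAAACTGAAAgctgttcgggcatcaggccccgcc
Irf1 (chr11:53769854-53770013, plus strand): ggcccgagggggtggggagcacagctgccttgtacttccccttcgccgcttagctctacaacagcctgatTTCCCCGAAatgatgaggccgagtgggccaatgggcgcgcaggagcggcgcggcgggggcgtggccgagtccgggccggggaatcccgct
Socs3 (chr11:117969367-117969526, minus strand): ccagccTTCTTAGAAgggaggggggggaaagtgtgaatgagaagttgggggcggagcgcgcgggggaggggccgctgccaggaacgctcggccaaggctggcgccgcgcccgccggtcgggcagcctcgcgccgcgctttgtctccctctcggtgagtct

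In Irgm1 2 ISRE matches overlap and start 30 and 24 bases before the gene's start, in Igtp a match starts 34 bases and in Gbp7 53 bases before it. The GAS match starts 90 bases before the start of Irf1 and 154 before that of Socs3. In windows of 250 bases before to 50 after the start, searched on both strands, ISRE letters occurred in 3.44% of 32851 promoters in the RefSeq table, and in 3.03% of the 18109 promoters of genes tested here. They occurred in 14.8% of the 236 promoters of genes that fell at least 2-fold and in 2.2% of the 182 promoters of genes that rose at least 2-fold. Of the interferon list, 10 of 22 promoters (45.5%), each of a different gene among 17 matched, held them. GAS letters occurred in 8.3% of all promoters, in 11% of those of genes that fell at least 2-fold and in 7.69% of those that rose as far. In the interferon list 5 of 22 promoters (22.7%) and in the list of the IL-6 pathway 4 of 15 (26.7%) held GAS letters, the latter from 3 of 13 genes, since 2 are promoters of Bcl6, which was not called. The cAMP response element TGACGTCA, where CREB and ATF factors bind, was present in 1.79% of all promoters and in 2.49% of those of genes tested. It was present in 0.847% of promoters of genes that fell at least 2-fold, in 1.1% of those that rose as far, and in 2 of 24 (8.33%) of the immediate early list. These are counts of letters with no test, and a match is not a measured binding site.

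Irgm1, an immunity-related GTPase that acts in defence inside the cell, read 4072, 2926 and 4337 at 3 h and 575, 374 and 453 at 6 h. It fell by 3.02 ± 0.18 (adjusted p = 5.1e-08). The 2 times lay far apart, and the brightest 6 h array was well below the dimmest 3 h array. Its relatives Iigp1, with 2548, 2096 and 2352 at 3 h and 589.6, 408 and 461 at 6 h, and Igtp, with 6717, 5836 and 5879 at 3 h and 2022, 1449 and 1593 at 6 h, did not overlap between times either. Iigp1 fell by 2.27 ± 0.14 (adjusted p = 4.8e-08) and Igtp by 1.88 ± 0.11 (adjusted p = 4.8e-08). Usp18, a protease that removes the ubiquitin-like protein ISG15 and limits interferon signals, read 271, 156 and 227 at 3 h and 62.6, 42.7 and 73.1 at 6 h (-1.87 ± 0.23, adjusted p = 3.1e-05). The genes that follow are not members of that list. They were among the 15 largest decreases and are described together here after their values were seen. Gbp8, a guanylate-binding protein and the largest decrease, read 1308, 968 and 940.2 at 3 h and 166, 106 and 88.8 at 6 h (-3.19 ± 0.20, adjusted p = 6.7e-08). Its family members Gbp7 (-3.04 ± 0.19, adjusted p = 5.9e-08) and Gbp6 (-2.46 ± 0.13, adjusted p = 2.6e-08) fell as clearly, though probe sets of such close relatives can share signal. Ifi213 (-3.14 ± 0.17, adjusted p = 2.6e-08) and Mndal (-2.74 ± 0.18, adjusted p = 7.9e-08) belong to the interferon-inducible p200 family, whose members sense DNA. Parp14, an ADP-ribosyltransferase (-2.83 ± 0.19, adjusted p = 1.2e-07), Samd9l, a growth-restraining antiviral protein (-2.75 ± 0.17, adjusted p = 5.1e-08), Rnf213, a ubiquitin ligase (-2.62 ± 0.18, adjusted p = 1.4e-07), and Trim12a, a TRIM family protein (-2.94 ± 0.20, adjusted p = 1.2e-07), fell along with them. A second probe set read each of Ifi213, Parp14, Rnf213 and Trim12a, and those gave smaller changes, with ranges of -3.14 to -0.83, -2.83 to -0.96, -2.62 to 0.16 and -2.94 to -0.24.

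Ifng, which codes for interferon gamma itself, read 2782, 1989.6 and 2256 at 3 h and 1765, 863 and 1685 at 6 h, and its change of -0.76 ± 0.27 was not called (adjusted p = 0.067, 95% interval -1.35 to -0.18). All 3 values at 6 h were below all 3 at 3 h. The call depended on the arrays: without 6 h replicate 1 the change was -0.94, adjusted p = 0.044, and without HF 6 h replicate 2, which only alters the shared spread, adjusted p = 0.03. The class II genes named above, which interferon gamma can induce, had lower sums at 6 h, with ranges that overlap, and the part of contaminating presenting cells in the interferon result was not tested.

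**Figure D2:**
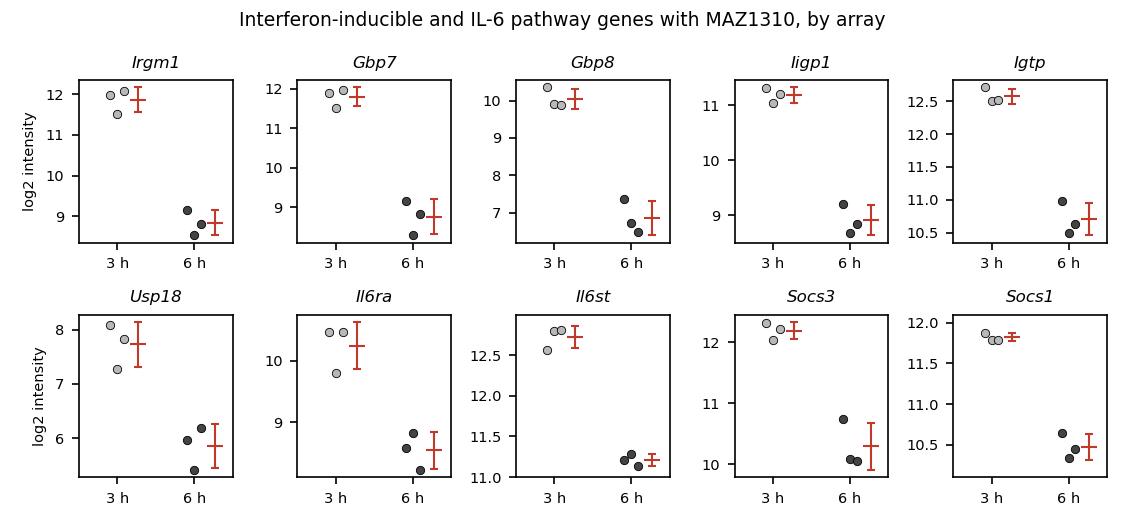
Log2 intensity of 6 interferon-inducible genes and 4 genes of the IL-6 pathway in each MAZ1310 array at 3 h (light) and 6 h (dark), with the mean and SD of 3 arrays in red and a separate vertical scale per gene. In every panel all 3 arrays at 6 h lie below all 3 at 3 h.

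The IL-6 arm of the Th17 conditions showed lower transcripts at the receptor and at its inhibitors. Of 15 list members 10 fell and 0 rose, with a median of -0.72. The receptor's binding subunit Il6ra read 1415, 895 and 1427 at 3 h and 384, 450.1 and 297 at 6 h, and its signalling subunit Il6st, which codes for GP130, read 6067, 7112 and 7143 at 3 h and 2369, 2487 and 2247 at 6 h. Il6ra fell by 1.71 ± 0.17 (adjusted p = 4.6e-06) and Il6st by 1.51 ± 0.095 (adjusted p = 4.8e-08). Both receptor genes were separated completely by time, as were 3516 of all 3595 called genes. Socs3, the inhibitor that STAT3 induces against GP130, read 5075, 4207 and 4768 at 3 h and 1707, 1088 and 1058 at 6 h (-1.90 ± 0.16, adjusted p = 7.9e-07), and Socs1, an inhibitor of JAK kinases, read 3766, 3539 and 3551 at 3 h and 1603, 1290.0 and 1398 at 6 h (-1.34 ± 0.094, adjusted p = 1.7e-07). The other 6 members that fell ranged from -1.06 to -0.50, and the 5 not called from -0.10 to 0.20.

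Most immediate early genes fell. Of 25 measured, 15 fell and 4 rose, with a median of -0.63. Fos, a subunit of the AP-1 factor, read 2363, 1875 and 2463 at 3 h and 987, 787 and 966 at 6 h (-1.29 ± 0.14, adjusted p = 8.6e-06). Egr3, which with its relatives responds to calcium and RAS signals, read 6105, 4643 and 4947 at 3 h and 1979.8, 1771 and 2138 at 6 h (-1.41 ± 0.12, adjusted p = 1.4e-06). Nr4a2, an orphan nuclear receptor, read 4793, 4069 and 4285 at 3 h and 1685, 1852 and 1907 at 6 h (-1.27 ± 0.097, adjusted p = 3.8e-07), although its 6 probe sets ranged from -1.85 to 0.39. None of these 3 genes overlapped between times. Nr4a1, a nuclear receptor whose level follows the strength of the receptor signal, read 14682, 14536 and 18995 at 3 h and 8339, 7644 and 8477 at 6 h (-0.97 ± 0.10, adjusted p = 8.1e-06). Egr1 fell as well (-0.85 ± 0.11, adjusted p = 4.7e-05). Egr2, a partner of Egr3 in restraining activation, fell least (-0.34 ± 0.10, adjusted p = 0.026), and that call was lost without 3 h replicate 3 (-0.20, adjusted p = 0.086) and without each of the 3 arrays at 6 h (adjusted p = 0.055 to 0.082). Against this trend Dusp4, a phosphatase of ERK and other MAP kinases, read 426, 518 and 805 at 3 h and 1232, 1691 and 2197 at 6 h and rose (1.56 ± 0.22, adjusted p = 0.00012). Ier3, an early gene tied to cell survival, rose too (1.24 ± 0.13, adjusted p = 7.3e-06).

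**Figure D3:**
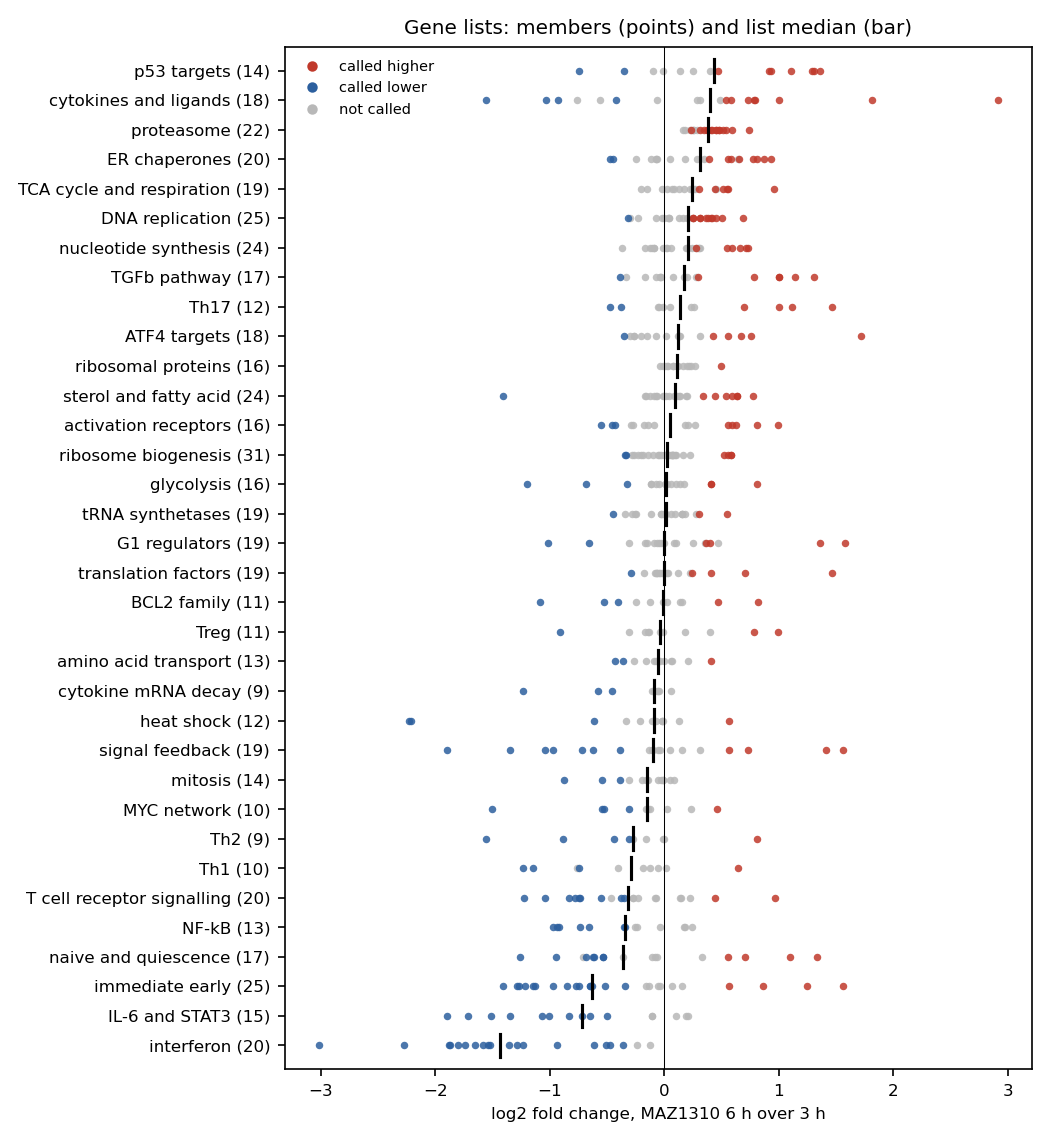
Log2 fold change from 3 h to 6 h with MAZ1310 of each measured member of 34 gene lists (points, coloured by call) with the list's median (bar), ordered by median, with the number of measured members in brackets. The medians run from -1.44 for interferon genes to 0.44 for p53 targets, and 18 of 20 interferon genes and 15 of 22 proteasome genes were called in one direction.

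Negative regulators of signalling split. In a list of 19 feedback inhibitors, which shares members with other lists, 7 fell and 4 rose, with a median of -0.095. Besides Socs3 and Socs1, Cblb, a ubiquitin ligase that restrains the receptor signal (-1.04 ± 0.10, adjusted p = 5e-06), and Tnfaip3, which codes for the NF-kB inhibitor A20 (-0.97 ± 0.12, adjusted p = 2.4e-05), fell. Rgs16, which shortens signals of G protein coupled receptors, read 1223, 1463 and 1455 at 3 h and 3568, 3554 and 3878 at 6 h and rose (1.41 ± 0.12, adjusted p = 9e-07). In the NF-kB list 7 of 13 fell and 0 rose, with a median of -0.34. Nfkbiz, an atypical IkB protein (-0.93 ± 0.095, adjusted p = 5.6e-06), Birc3, a ubiquitin ligase of TNF receptor signalling (-0.92 ± 0.095, adjusted p = 6.8e-06), and Rel, the subunit that T cells use for cytokine genes (-0.74 ± 0.16, adjusted p = 0.0029), were among them. Of 20 T cell receptor signalling genes 9 fell and 2 rose, with a median of -0.31. Dgka, a kinase that removes diacylglycerol and damps signalling, read 1253, 1242 and 1518 at 3 h and 649, 638 and 449 at 6 h (-1.22 ± 0.14, adjusted p = 1.2e-05). Prkcq, the protein kinase C of the T cell synapse (-0.83 ± 0.09, adjusted p = 1.1e-05), fell. Nfatc2, a calcium-activated factor, read 437, 513 and 396 at 3 h and 755, 1109 and 788 at 6 h and rose (0.97 ± 0.15, adjusted p = 0.00024), while its 6 probe sets ranged from -0.11 to 0.97. Of 9 genes for proteins that control decay of cytokine mRNA 3 fell and 0 rose, with a median of -0.085. These were Zfp36, which codes for tristetraprolin (-1.23 ± 0.12, adjusted p = 2.7e-06), Zc3h12a, the RNase regnase-1 (-0.57 ± 0.12, adjusted p = 0.002), and Zfp36l1 (-0.46 ± 0.088, adjusted p = 0.0014).

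Cytokine genes moved in both directions. Of 18 cytokines and membrane ligands 8 rose and 4 fell, with a median of 0.40, and without 3 h replicate 1 or without 6 h replicate 2 only 2 were called lower. Lta, which codes for lymphotoxin alpha, read 547, 786 and 641 at 3 h and 4440.3, 5074 and 5245 at 6 h and rose by 2.91 ± 0.15 (adjusted p = 2.4e-08). No array at 6 h came near the 3 h range. Ltb, its membrane partner, read 2238, 2444 and 1862 at 3 h and 6734, 8772 and 7499 at 6 h (1.81 ± 0.14, adjusted p = 5.2e-07). Il2, the main T cell growth factor, read 11639.9, 15231 and 12871 at 3 h and 19987, 18606 and 18819 at 6 h (0.54 ± 0.10, adjusted p = 0.0014). All 3 genes were separated by time. Il10, an anti-inflammatory cytokine, read 376, 278 and 349.7 at 3 h and 588, 456 and 694 at 6 h (0.78 ± 0.19, adjusted p = 0.0073). Il4, the Th2 cytokine, read 2451, 2387 and 779 at 3 h and 472, 542 and 706 at 6 h and fell by 1.55 ± 0.33 (adjusted p = 0.0026). The spread at 3 h was wide, since replicate 3 was far below the other two, yet above each 6 h array. Csf2, which codes for GM-CSF, showed the same low replicate 3, with 561, 624 and 305 at 3 h and 282, 211 and 209 at 6 h (-1.03 ± 0.20, adjusted p = 0.0014). Without the arrays numbered 2 of all groups, neither Il4 (-1.26, adjusted p = 0.084) nor Csf2 (-0.77, adjusted p = 0.051) was called.

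Genes of the Th17 program moved in both directions. Of 12 measured 4 rose and 2 fell, with a median of 0.14. Rora, which codes for the Th17 factor RORa, read 396, 515 and 714 at 3 h and 1133, 1528 and 1763 at 6 h (1.46 ± 0.19, adjusted p = 5.3e-05), and its 9 probe sets ranged from -0.062 to 1.79. Maf, a factor for IL-21 and IL-10 expression, read 2716, 3092 and 3135 at 3 h and 6058, 7221 and 6129 at 6 h (1.12 ± 0.17, adjusted p = 0.00025). Il21, a cytokine that Th17 cells secrete and respond to, read 2776, 3498 and 3295 at 3 h and 6409, 6388 and 6251 at 6 h (1.00 ± 0.093, adjusted p = 2.5e-06), while its other probe set gave -0.37. Every 6 h array lay above every 3 h array for these genes and for Ahr, the aryl hydrocarbon receptor (0.70 ± 0.098, adjusted p = 0.0001). Il17a, which defines the fate, read 1163, 729.6 and 536 at 3 h and 1479.8, 630.1 and 832 at 6 h. Those values overlapped, and the change of 0.26 ± 0.34 was not called (adjusted p = 0.73, 95% interval -0.46 to 0.97). Its sign turned without 3 h replicate 3 (-0.0039) and without 6 h replicate 1 (-0.088). Batf (-0.47 ± 0.10, adjusted p = 0.0031) and Irf4 (-0.38 ± 0.083, adjusted p = 0.0038), factors that open the Th17 loci together, fell.

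**Figure D4:**
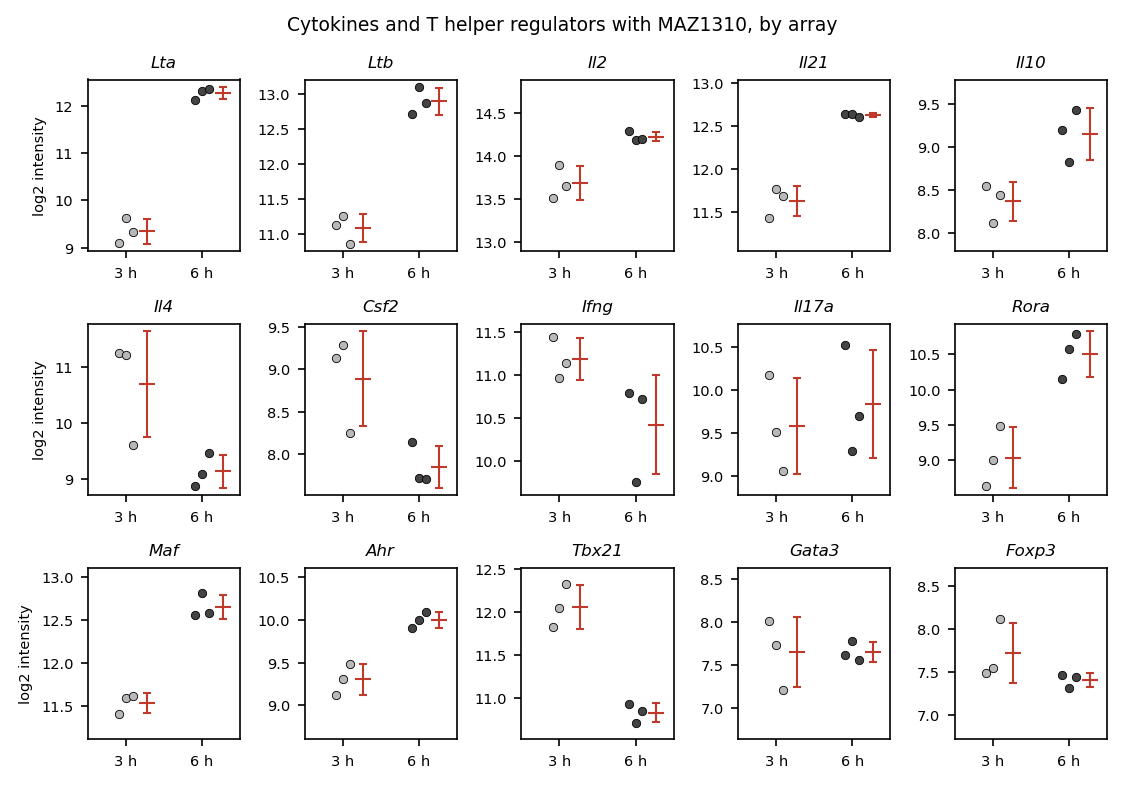
Log2 intensity of 15 cytokine and T helper genes in each MAZ1310 array at 3 h (light) and 6 h (dark), with the mean and SD of 3 arrays in red and a separate vertical scale per gene. Lta, Ltb, Il2, Il21, Il10, Rora, Maf and Ahr lie higher at 6 h without overlap, Il4, Csf2 and Tbx21 lower, and the values of Il17a and Gata3 overlap.

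Genes of the other helper fates were counted in the same way. Of 10 Th1 genes 3 fell and 1 rose, with a median of -0.29. Tbx21, which codes for the Th1 factor T-bet, read 3608, 4204 and 5138 at 3 h and 1948, 1666 and 1844 at 6 h (-1.23 ± 0.11, adjusted p = 2.1e-06). Stat4, which carries the IL-12 signal, read 432, 306 and 372 at 3 h and 210.3, 143 and 150.2 at 6 h (-1.15 ± 0.21, adjusted p = 0.00097). Neither gene overlapped between times, and Il18rap, a subunit of the IL-18 receptor, fell less (-0.75 ± 0.11, adjusted p = 0.00011). Il12rb1, a subunit shared by the receptors for IL-12 and IL-23, rose (0.64 ± 0.16, adjusted p = 0.01), but the call was lost without 3 h replicate 1 (0.48, adjusted p = 0.057) or without 6 h replicate 3 (adjusted p = 0.054), which left 0 of 10 called higher. Of 9 Th2 genes 4 fell and 1 rose, with a median of -0.27. Besides Il4, Il4ra, its receptor, read 1628, 1837 and 1501 at 3 h and 938, 893 and 852 at 6 h (-0.88 ± 0.091, adjusted p = 6.3e-06). Nfil3, a basic leucine zipper factor, fell (-0.44 ± 0.13, adjusted p = 0.027), and lost its call without 3 h replicates 1 or 3 or 6 h replicates 2 or 3 (adjusted p = 0.053 to 0.13). Without 3 h replicate 3 or without 6 h replicate 3, 2 Th2 genes were called lower in place of 4. Ccr8, a chemokine receptor, read 949.8, 1119.9 and 784 at 3 h and 1335, 1698 and 1993 at 6 h and rose (0.81 ± 0.16, adjusted p = 0.0017). Gata3, the Th2 factor, read 257, 213 and 148 at 3 h and 196, 219 and 188 at 6 h, with a change of -0.0031 (95% interval -0.40 to 0.39). Its arrays overlapped, and the sign turned without 3 h replicates 1 (0.18) or 2 (0.040) or 6 h replicates 1 (0.014) or 3 (0.045). Of 11 regulatory T cell genes 2 rose and 1 fell, with a median of -0.036. Foxp3, the factor of those cells, read 179, 186 and 278 at 3 h and 177, 159 and 174 at 6 h and was not called (-0.31 ± 0.14, adjusted p = 0.15). Ikzf4, which codes for the factor Eos, fell (-0.91 ± 0.087, adjusted p = 3.1e-06).

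Genes of the TGFb pathway were next. Of 17 measured members 6 rose and 1 fell, with a median of 0.17. The single fall, that of Tgfb1 itself (-0.39 ± 0.12, adjusted p = 0.033), named after its value was seen, was lost without 3 h replicate 2, 6 h replicate 1 or 6 h replicate 3. Klf10, an early TGFb-induced repressor, read 212, 269 and 468 at 3 h and 707, 746 and 771 at 6 h (1.31 ± 0.23, adjusted p = 0.00069). Id2, an inhibitor of E protein factors, read 788, 709 and 582 at 3 h and 1283, 1496 and 1819 at 6 h (1.14 ± 0.16, adjusted p = 0.00012), and Id3, its relative, rose by a similar amount (1.01 ± 0.19, adjusted p = 0.0014). Pmepa1, a membrane protein that TGFb induces and that limits SMAD signals, read 1701, 2072 and 1361 at 3 h and 3178, 3567 and 3422 at 6 h (1.01 ± 0.15, adjusted p = 0.00017). All 4 were separated by time. Smad7, the inhibitory SMAD, read 1014, 835 and 1066 at 3 h and 1108, 1174 and 1059.5 at 6 h and was not called (0.20 ± 0.10, adjusted p = 0.23, 95% interval -0.019 to 0.43).

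Activation receptors changed in both directions. Of 16 measured 5 rose and 3 fell, with a median of 0.048. Tnfrsf18, which codes for the costimulatory receptor GITR, read 1734, 1839.9 and 1249 at 3 h and 3049.7, 3177 and 3271 at 6 h (1.00 ± 0.12, adjusted p = 2.8e-05). Tnfrsf4, which codes for OX40, read 4133, 4208 and 3080.1 at 3 h and 6332, 6474 and 7069 at 6 h (0.81 ± 0.11, adjusted p = 0.00011), and Lag3, an inhibitory receptor, rose too (0.63 ± 0.15, adjusted p = 0.0058). Cd69, an early receptor that holds cells in lymphoid tissue, read 10624, 9343 and 10345 at 3 h and 7646, 7793 and 7073 at 6 h (-0.43 ± 0.082, adjusted p = 0.0013). Il2ra, the IL-2 receptor alpha chain CD25, which the starting cells lacked by their label, read 4469.7, 5521 and 5099 at 3 h and 5548, 5576 and 5916 at 6 h. The lowest 6 h array was just above the highest 3 h array, and the change of 0.18 ± 0.094 was not called (adjusted p = 0.24). Tfrc, the transferrin receptor, was not called either (-0.17 ± 0.093, adjusted p = 0.25). Of 17 genes of naive or resting T cells 7 fell and 4 rose, with a median of -0.36, and without 6 h replicate 2 the number called lower was 4. Il7r, the receptor for the survival cytokine IL-7, read 452, 281 and 329.6 at 3 h and 148, 139.7 and 147 at 6 h (-1.26 ± 0.15, adjusted p = 2.9e-05). Satb1, a chromatin organizer of T cells, read 11597, 11629 and 13596 at 3 h and 7025, 6478 and 5653 at 6 h (-0.94 ± 0.092, adjusted p = 3.9e-06), and Klf2, a quiescence factor, fell as well (-0.63 ± 0.11, adjusted p = 0.00094). In the other direction Ccr7, the lymph node homing receptor, read 290.4, 278 and 381 at 3 h and 856, 895 and 639 at 6 h (1.33 ± 0.19, adjusted p = 0.00011), and Foxp1, a quiescence factor, read 2140.2, 1583 and 1794 at 3 h and 3692, 4039 and 3966 at 6 h (1.09 ± 0.13, adjusted p = 1.8e-05).

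The largest increases came from scattered functions. Cpd, a carboxypeptidase of the secretory pathway, read 182, 196 and 195 at 3 h and 1268, 1947 and 1744 at 6 h (3.09 ± 0.15, adjusted p = 1.7e-08). Its 7 probe sets ranged from 0.21 to 3.09. Pdgfb, a platelet-derived growth factor chain, read 428, 972 and 1247 at 3 h and 3107, 4456 and 3958 at 6 h (2.24 ± 0.35, adjusted p = 0.00024), and Timp1, an inhibitor of matrix proteases, read 833, 1978 and 775 at 3 h and 3414, 5055 and 5928 at 6 h (2.11 ± 0.32, adjusted p = 0.00023). Neither gene overlapped between times, which was a condition for entry among the 15 largest increases. Crabp2, a retinoic acid carrier (2.34 ± 0.25, adjusted p = 7.9e-06), Gphn, a scaffold protein that also makes molybdenum cofactor (2.17 ± 0.16, adjusted p = 2.2e-07), and Afp, the fetal serum protein alpha-fetoprotein (2.13 ± 0.16, adjusted p = 3.9e-07), all rose by more than 2 on the log2 scale. Psrc1, a microtubule-associated protein (2.00 ± 0.21, adjusted p = 6.3e-06), Mob3b, a MOB kinase activator (1.81 ± 0.17, adjusted p = 2.9e-06), and Bcat1, the cytosolic branched-chain aminotransferase (1.77 ± 0.11, adjusted p = 5.3e-08), followed. Acot7, an acyl-CoA thioesterase (1.70 ± 0.13, adjusted p = 3.4e-07), and Ncs1, a calcium sensor (1.69 ± 0.21, adjusted p = 2.9e-05), completed the 15 largest with Lta, Ltb, Ddit4 and a clone name. Outside the interferon families, the largest decreases were Arhgap15, a GTPase-activating protein for RAC (-3.10 ± 0.25, adjusted p = 5.4e-07), Kbtbd11, a kelch and BTB domain protein (-3.09 ± 0.14, adjusted p = 1.2e-08), Slc14a1, a urea transporter (-2.71 ± 0.16, adjusted p = 4.8e-08), Ms4a4b, a membrane protein of T cells (-2.43 ± 0.20, adjusted p = 8.2e-07), and another clone name. Kbtbd11 read 3785, 2844 and 3560.1 at 3 h and 448, 370.2 and 376 at 6 h. Arhgap15 spanned a wide range at 3 h, 755, 1024 and 1800.2 at 3 h and 159.7, 119.8 and 116 at 6 h, and its 3 probe sets ranged from -3.43 to -0.17.

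Of 31 ribosome biogenesis genes 4 rose and 2 fell, close to the shares of 12.1% and 7.64% over all genes, and the median was 0.024. Of 16 ribosomal protein genes 1 rose, Rps6, of the small subunit (0.50 ± 0.074, adjusted p = 0.00017). The 4 biogenesis genes that rose were Gar1 (0.58 ± 0.12, adjusted p = 0.0026), Nhp2 (0.56 ± 0.11, adjusted p = 0.0013) and Nop10 (0.58 ± 0.18, adjusted p = 0.028), all of the RNA-guided pseudouridine synthase, and Utp20, a pre-rRNA processing factor (0.52 ± 0.14, adjusted p = 0.014). Nop10 lost its call without 3 h replicate 3 (0.30, adjusted p = 0.071) and without each of the 6 h arrays (adjusted p = 0.061 to 0.086), and Utp20 without 6 h replicate 2 (adjusted p = 0.061), which left 2 called higher there. The count called lower ran from 0, without 3 h replicate 3 or 6 h replicate 3, through 1, without 3 h replicate 2 or 6 h replicate 1, to 7 without 3 h replicate 1. Without that array the ribosomal proteins called higher were 2. Of 24 nucleotide synthesis genes 6 rose and 0 fell, with a median of 0.21. Leaving out 3 h replicate 3 gave 11 that rose, and leaving out 3 h replicate 1 gave 1 that fell. Prps2, which makes the ribose donor of nucleotides, read 583, 688 and 643 at 3 h and 1041, 1133 and 1003 at 6 h (0.73 ± 0.09, adjusted p = 3.1e-05). Dhodh (0.71 ± 0.11, adjusted p = 0.00016) and Cad (0.59 ± 0.15, adjusted p = 0.0094) are pyrimidine enzymes and Pfas (0.66 ± 0.11, adjusted p = 0.00034) a purine enzyme, and Cad was not called without 6 h replicate 2 (adjusted p = 0.051).

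Among translation factors 4 of 19 rose and 1 fell, with a median of 0.0010. Eif4ebp1, the mTORC1-controlled repressor of cap binding, read 289, 342 and 221 at 3 h and 806, 733 and 782 at 6 h (1.47 ± 0.13, adjusted p = 1.2e-06). Eif2b3 (0.71 ± 0.12, adjusted p = 0.00043) and Eif2b4 (0.41 ± 0.10, adjusted p = 0.0089), subunits of the exchange factor for eIF2, rose. The single fall, Eif3a (-0.29 ± 0.087, adjusted p = 0.028), was not called without 3 h replicate 3 or without any one 6 h array (adjusted p = 0.064 to 0.1). Of 19 tRNA synthetases 2 rose, those for methionine (Mars1, 0.55 ± 0.11, adjusted p = 0.0023) and the beta subunit for phenylalanine (Farsb, 0.31 ± 0.089, adjusted p = 0.022), and 1 fell, that for threonine (Tars, -0.44 ± 0.11, adjusted p = 0.0076), with a median of 0.015. Farsb was not called without 3 h replicate 1, 6 h replicate 1 or 6 h replicate 3 (adjusted p = 0.065 to 0.093), which leaves 1 higher, and another probe set gave -0.063 for it. Without 3 h replicate 3, 4 were higher. Leaving out 3 h replicate 1 left 5 synthetases lower. Of 13 amino acid transporters 1 rose, the glycine carrier Slc6a9 (0.40 ± 0.10, adjusted p = 0.0085), and 2 fell, the glutamine carrier Slc1a5 (-0.43 ± 0.11, adjusted p = 0.0077) and the arginine carrier Slc7a1 (-0.36 ± 0.076, adjusted p = 0.0029), with a median of -0.054. Slc7a5, the leucine carrier, was not called (-0.27 ± 0.093, adjusted p = 0.056), but was without 3 h replicate 1 or 3 (adjusted p = 0.031 and 0.039). Of 18 targets of the stress factor ATF4 5 rose and 1 fell, with a median of 0.12. Ddit4, an inhibitor of mTORC1, read 477, 646 and 446 at 3 h and 1637, 1783 and 1679 at 6 h (1.72 ± 0.11, adjusted p = 1e-07), and Asns, asparagine synthetase (0.76 ± 0.17, adjusted p = 0.0052), Psph (0.67 ± 0.16, adjusted p = 0.0067) and Phgdh (0.56 ± 0.10, adjusted p = 0.00094), both of serine synthesis, rose. The count called lower there was 0 without 3 h replicate 2 or 6 h replicate 3 and 2 without 3 h replicate 1.

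In glycolysis 3 of 16 rose and 3 fell, with a median of 0.019. Hk1, a hexokinase, read 3600.5, 3585 and 3818 at 3 h and 1668, 1693 and 1458 at 6 h (-1.19 ± 0.10, adjusted p = 9e-07), and Hk2, its inducible relative, read 1683, 2529.5 and 2654 at 3 h and 2580.4, 2425 and 2389.8 at 6 h and was not called (0.13 ± 0.16, adjusted p = 0.69). Tpi1 (0.81 ± 0.11, adjusted p = 7.9e-05) and Aldoa (0.41 ± 0.086, adjusted p = 0.0024), enzymes of the middle of the pathway, rose. The glucose carrier Slc2a3 fell (-0.68 ± 0.089, adjusted p = 5.1e-05), with probe sets from -0.68 to 0.12, and the main carrier Slc2a1 read 1566, 1738 and 1704 at 3 h and 1553, 1602 and 1679.9 at 6 h and was not called (-0.05 ± 0.086, adjusted p = 0.8, 95% interval -0.23 to 0.13). Of 19 genes of the TCA cycle and respiration 6 rose and 0 fell, with a median of 0.24. Idh2 (0.96 ± 0.11, adjusted p = 1.4e-05), Sdhb (0.56 ± 0.12, adjusted p = 0.0028), Fh1 (0.55 ± 0.093, adjusted p = 0.00047) and Suclg1 (0.51 ± 0.11, adjusted p = 0.0041), all TCA cycle enzymes, were the largest, though the second probe set of Idh2 gave -0.053. In the list for sterols and fatty acids 7 of 24 rose and 1 fell, with a median of 0.097. Acaca, the first enzyme of fatty acid synthesis (0.77 ± 0.15, adjusted p = 0.0012), Fdft1 (0.64 ± 0.12, adjusted p = 0.00089) and Fdps (0.64 ± 0.11, adjusted p = 0.00052), of the mevalonate pathway, rose, while 1 of the 4 probe sets of Fdft1 was called lower (-0.43). Elovl6, a fatty acid elongase, read 686, 1019.9 and 671 at 3 h and 309, 278 and 294 at 6 h (-1.40 ± 0.15, adjusted p = 9.5e-06), and without 3 h replicate 1 a second member was called lower.

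Most proteasome subunits rose by small steps. Of 22 subunits 15 rose and 0 fell, with changes of 0.16 to 0.74 and a median of 0.38, against 12.1% of all genes that rose. Psmb3 read 2916, 3325 and 1752 at 3 h and 4289, 4677 and 3978 at 6 h (0.74 ± 0.17, adjusted p = 0.0046), and Psmb6 (0.60 ± 0.13, adjusted p = 0.0036), Psmb5 (0.54 ± 0.098, adjusted p = 0.00085) and Psma6 (0.51 ± 0.10, adjusted p = 0.0017) are further parts of the catalytic core. At 3 h replicate 3 was the lowest array for all 4. The count was 9 without 6 h replicate 3, and 1 with the actin 3' to 5' difference and the replicate number in the fit. Of 20 endoplasmic reticulum folding genes 8 rose and 2 fell, with a median of 0.32, and without 6 h replicate 1 or 2 only 1 was called lower. The disulfide isomerases Pdia3, with 2425, 2306 and 1993 at 3 h and 4124, 4239 and 4438 at 6 h (0.93 ± 0.10, adjusted p = 1.4e-05), and Pdia4 (0.87 ± 0.10, adjusted p = 1.9e-05) rose, as did Creld2 (0.81 ± 0.12, adjusted p = 0.00023) and the chaperone partner Sdf2l1 (0.78 ± 0.11, adjusted p = 0.00011). In the heat shock list 3 of 12 fell and 1 rose, with a median of -0.089. Hspa1b, an inducible HSP70, read 1600.0, 2555 and 1340.1 at 3 h and 621, 255 and 334 at 6 h (-2.23 ± 0.29, adjusted p = 5.9e-05). Hspa1a, its near-identical copy, read 304, 528 and 401 at 3 h and 109, 76.9 and 78.2 at 6 h (-2.21 ± 0.22, adjusted p = 4.6e-06), and signal of the 2 copies may be shared. Dnajb1, their cochaperone, fell (-0.61 ± 0.081, adjusted p = 5.7e-05), and Hspe1, the mitochondrial cochaperonin, rose (0.57 ± 0.14, adjusted p = 0.0083).

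Replication genes rose in part, and no mitotic gene rose. Of 25 DNA replication genes 11 rose and 1 fell, with a median of 0.21. Pola1, a subunit of the primase complex, read 179, 186 and 177 at 3 h and 297, 299 and 278 at 6 h (0.69 ± 0.088, adjusted p = 4.6e-05), and the helicase subunits Mcm5 (0.45 ± 0.081, adjusted p = 0.00075) and Mcm7 (0.41 ± 0.095, adjusted p = 0.005) rose. Rfc4, a clamp loader subunit, rose (0.51 ± 0.15, adjusted p = 0.025), but not without 3 h replicate 2, 6 h replicate 2 or 6 h replicate 3 (adjusted p = 0.076 to 0.13). The count of replication genes called higher was 6 without 3 h replicate 1 and 5 without 3 h replicate 2, 6 h replicate 2 or 6 h replicate 3. The count called lower was 2 without 3 h replicate 1 and 0 without 3 h replicate 3 or any one 6 h array. Of 19 G1 regulators 4 rose and 2 fell, with a median of 0.0016. Cdk6, a G1 kinase, read 1261, 2076 and 1584 at 3 h and 4606, 4999.6 and 4814 at 6 h (1.58 ± 0.15, adjusted p = 3.1e-06). Ccnd3, a cyclin D, rose (0.36 ± 0.074, adjusted p = 0.0022), and Ccnd2, its relative, was not called (-0.17 ± 0.10, adjusted p = 0.32). Cdkn2d, an inhibitor of CDK4 and CDK6 (-1.01 ± 0.13, adjusted p = 3.8e-05), and Rb1, the retinoblastoma protein (-0.66 ± 0.15, adjusted p = 0.0057), fell. Cdkn1b, which codes for the quiescence inhibitor p27, read 256, 136 and 76.0 at 3 h and 211, 183 and 144 at 6 h and was not called (0.36 ± 0.30, adjusted p = 0.53). Its 3 h values spread widely, and its change was 0.80, adjusted p = 0.026 without 3 h replicate 1 and -0.075 without 3 h replicate 3. Of 14 mitotic genes 3 fell and 0 rose, with a median of -0.15. Of the 14, 7 had a mean log2 signal below the mean of the array medians, so their changes may be understated. The 3 that fell were Mki67, the proliferation marker (-0.88 ± 0.16, adjusted p = 0.00098), Top2a, a topoisomerase (-0.54 ± 0.17, adjusted p = 0.034), and Ccnb2, a mitotic cyclin (-0.39 ± 0.12, adjusted p = 0.028). Top2a overlapped between times, with 223, 265 and 372 at 3 h and 171, 183 and 229 at 6 h. With another of its probe sets its change was 0.057. Top2a lost its call without 3 h replicate 3, 6 h replicate 1 or 6 h replicate 2 (adjusted p = 0.11 to 0.16), and Ccnb2 without those or 6 h replicate 3 (0.06 to 0.11), which left 1 mitotic gene called without each of the 3 arrays they share.

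In the MYC network 4 of 10 fell and 1 rose, with a median of -0.15. Myc, the transcription factor at its centre, read 8122, 9118 and 11651 at 3 h and 6586, 6273 and 6763 at 6 h (-0.54 ± 0.11, adjusted p = 0.0027). Mxd1, a repressor that competes with MYC for its partner MAX, read 1170.1, 1349.6 and 2785 at 3 h and 527, 508 and 718 at 6 h (-1.51 ± 0.30, adjusted p = 0.002), and Mnt, another such repressor, fell as well (-0.53 ± 0.12, adjusted p = 0.0041). Mxd3, of the same family, rose (0.46 ± 0.13, adjusted p = 0.021), a call that was lost without 3 h replicate 3, 6 h replicate 1 or 6 h replicate 2 (adjusted p = 0.074 to 0.091). Of 14 genes that p53 can induce 7 rose and 2 fell, with a median of 0.44, and without 3 h replicate 2 or 3 or 6 h replicate 1 or 3 only 1 was lower. Cdkn1a, which codes for the cell cycle inhibitor p21, read 1615, 2138 and 1650.4 at 3 h and 4573, 4647 and 4535 at 6 h (1.36 ± 0.099, adjusted p = 2.5e-07). Ei24, an endoplasmic reticulum protein, read 598, 755 and 619 at 3 h and 1609.7, 1703 and 1541 at 6 h (1.31 ± 0.10, adjusted p = 4.7e-07), and Phlda3, an inhibitor of AKT, read 459, 589.8 and 449.8 at 3 h and 1132, 1327 and 1185 at 6 h (1.29 ± 0.11, adjusted p = 1.1e-06). Zmat3, an RNA-binding protein, rose to a similar extent (1.11 ± 0.14, adjusted p = 4.2e-05), and no array of these 4 genes at 6 h fell within the 3 h range. In the BCL2 family 2 of 11 rose and 3 fell, with a median of -0.013. Bcl2, a survival protein of resting lymphocytes, read 815, 753 and 735 at 3 h and 361, 370.2 and 352 at 6 h (-1.09 ± 0.12, adjusted p = 1e-05). Bcl2l1, which codes for the survival protein BCL-XL, read 1401, 2039 and 2019 at 3 h and 3046, 3553 and 2907 at 6 h (0.82 ± 0.16, adjusted p = 0.0015), so the 2 survival genes moved in opposite directions. Bcl2l11, which codes for the death-promoting BIM, fell (-0.52 ± 0.11, adjusted p = 0.0033), and Bbc3, which codes for PUMA, rose (0.47 ± 0.11, adjusted p = 0.0061).

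The course was then set against that of cells given 10 nM HF for the same 3 h and 6 h, with no array in common. The labels describe MAZ1310 only as an inactive derivative, so the pair is compared by response alone, and 1 pair of compounds was compared. The course difference is the change with HF minus the change with MAZ1310, tested in the same limma fit and adjusted over all genes. It was called for 328 genes, 1.8% of those tested, 161 of them with a higher value with HF and 167 with a lower one. For the other genes no difference was called, which does not show that the compounds act alike. Of the 328, 235 were also among the genes called in the MAZ1310 course. Of these, 84 had a fall and 132 a rise that was smaller, absent or turned with HF, while 3 fell further and 16 rose further. These genes were picked by their MAZ1310 change, which the course difference subtracts. The split toward smaller or turned changes with HF is therefore partly built in, and how far was not tested. Deviations of equal-numbered HF and MAZ1310 arrays correlated at over 0.1 at both times. With the replicate number as a block, 680 genes were called. The count was sensitive to single arrays. Without 3 h replicate 1 of MAZ1310 it was 602. It was 141 and 172 without 6 h replicates 2 and 3 of MAZ1310, 129 and 180 without 3 h replicates 1 and 3 of HF, and 136 and 170 without 6 h replicates 1 and 2 of HF.

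The fall of interferon-inducible genes was smaller with HF for several members. Gbp7 read 3821, 2941 and 4018 at 3 h and 571, 313 and 458 at 6 h with MAZ1310 and 7696, 7982 and 9372 at 3 h and 4233, 2910.0 and 4035 at 6 h with HF. Its change was -3.04 and -1.18, a course difference of 1.86 ± 0.27 (adjusted p = 0.0033). The HF arrays lay above the MAZ1310 arrays at both times. Differences of the same sign were called for Gbp8 (1.73 ± 0.29, adjusted p = 0.0078), Irgm1 (1.44 ± 0.26, adjusted p = 0.011), Igtp (1.16 ± 0.16, adjusted p = 0.0026), Iigp1, Gbp6, Mndal and Ifi213. For Ifi213 the mean of its probe sets gave a course difference of only 0.14 (adjusted p = 0.92). Over the whole interferon list the median change was -0.93 with HF, and 3 of 20 members were called different, against 1.8% of all genes (5 of 20 with the replicate block, against 3.74%). In the IL-6 list 3 of 15 were (4 with the block), all with smaller falls with HF, among them Socs3 (0.92 ± 0.22, adjusted p = 0.048) and Il6st (0.82 ± 0.13, adjusted p = 0.0047). Slc14a1 (1.69 ± 0.23, adjusted p = 0.0024), Tbx21 (0.79 ± 0.16, adjusted p = 0.02) and Satb1 (0.67 ± 0.13, adjusted p = 0.016) also had smaller falls with HF.

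**Figure D5:**
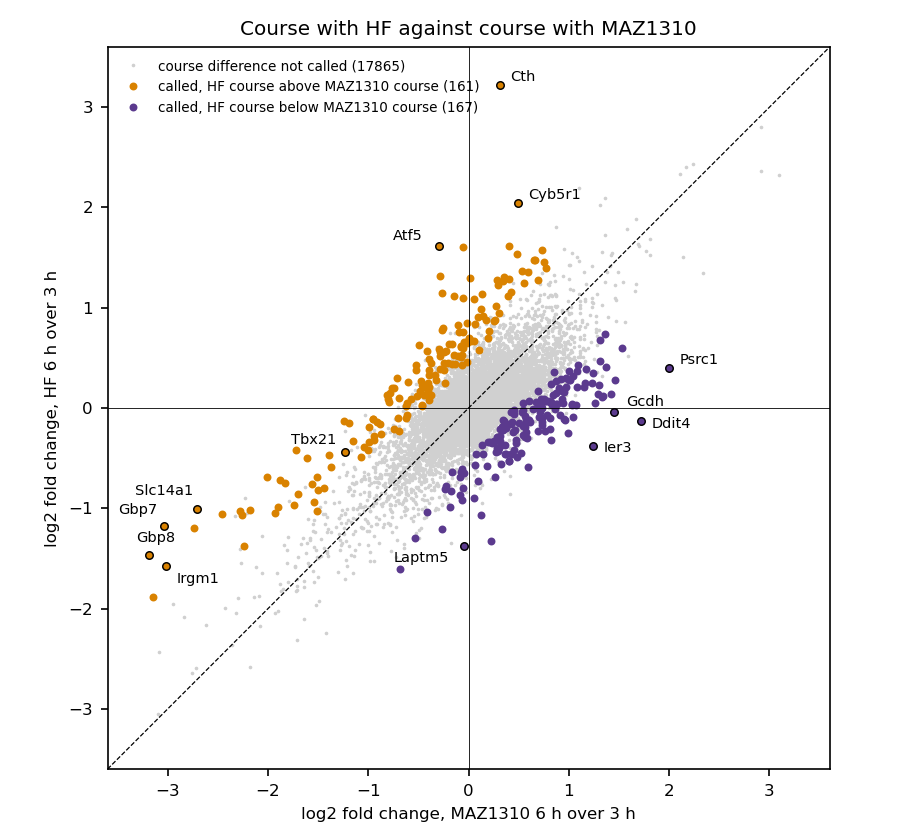
Log2 fold change from 3 h to 6 h with HF against that with MAZ1310, 1 point per gene, with the 328 genes called in the course difference in colour and a dashed line where both courses are equal. Genes such as Gbp7 and Gbp8 lie above the line at the lower left, since they fell further with MAZ1310, and Ddit4, Psrc1 and Ier3 lie below it, since they rose with MAZ1310 and had smaller or negative changes with HF.

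Rises with MAZ1310 that were smaller, absent or turned with HF included Ddit4, with 477, 646 and 446 at 3 h and 1637, 1783 and 1679 at 6 h for MAZ1310 and 1406, 1265 and 1295 at 3 h and 1248, 1146 and 1221 at 6 h for HF. Its change was 1.72 with MAZ1310 and -0.13 with HF, a difference of -1.85 ± 0.16 (adjusted p = 0.00014). With HF the 3 arrays at 6 h lay just below those at 3 h, and with MAZ1310 far above. Psrc1 (-1.60 ± 0.29, adjusted p = 0.011), Ier3 (-1.62 ± 0.18, adjusted p = 0.00071), Ccr7 (-1.22 ± 0.27, adjusted p = 0.029), Ccr8 (-1.02 ± 0.23, adjusted p = 0.034) and Tnfrsf18 (-0.72 ± 0.17, adjusted p = 0.046) went the same way. So did the p53 list members Cdkn1a (-0.62 ± 0.14, adjusted p = 0.037), Ei24 and Phlda3, 3 of 14 against 1.8% of all genes (6 with the replicate block, against 3.74%). The folding enzymes Pdia3 and Pdia4 were also lower with HF, but 1 other folding gene was called higher, which made 3 of 20 (4 with the block). Further such genes were the replication gene Mcm5, 1 of 25 in its list (2 with the block), and Gcdh, a mitochondrial dehydrogenase of lysine breakdown (1.45 ± 0.14, adjusted p = 2.6e-06 with MAZ1310). Ddias, an apoptosis suppressor (1.42 ± 0.17, adjusted p = 2.4e-05), and Cd52, a small glycoprotein of lymphocytes (0.99 ± 0.19, adjusted p = 0.0014), rose with MAZ1310 and had changes of 0.14 and -0.25 with HF.

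Several genes were called with HF and not with MAZ1310, or rose further with HF. Cth, an enzyme of cysteine synthesis, read 23.2, 25.7 and 22.9 at 3 h and 23.7, 33.8 and 32.6 at 6 h with MAZ1310 (change 0.31 ± 0.20, adjusted p = 0.37) and had a change of 3.22 with HF (adjusted p = 2.0e-07), a difference of 2.91 ± 0.28 (adjusted p = 0.0002). Atf5, a factor of the ATF4 family (1.91 ± 0.22, adjusted p = 0.00073), the amino acid carrier Slc7a3 (1.66 ± 0.24, adjusted p = 0.0033), and Zbed5, a protein derived from a transposase (1.60 ± 0.16, adjusted p = 0.00032), were not called in the MAZ1310 course and rose with HF (adjusted p = 5.4e-06, 1.2e-05 and 2.2e-06 in the HF course). Without 3 h replicate 1, Zbed5 was called lower with MAZ1310 (-0.40, adjusted p = 0.026). Slc6a9 and Cyb5r1, a cytochrome b5 reductase (0.49 ± 0.11, adjusted p = 0.0035 with MAZ1310), rose in both courses (adjusted p = 2.0e-07 and 1.0e-07 with HF), further with HF (differences 1.22 ± 0.14 and 1.55 ± 0.15, adjusted p = 0.00073 and 0.0002). In the ATF4 list 6 of 18 course differences were called, against 1.8% of all genes (8 with the replicate block, against 3.74%), 5 of the 6 higher with HF, and the list's median change was 0.12 with MAZ1310 and 0.53 with HF. Laptm5, a lysosomal protein that limits receptor levels, and Gpr174, a receptor on lymphocytes, were not called with MAZ1310 (-0.042 and 0.23) and had changes of -1.37 and -1.33 with HF (adjusted p = 2.7e-06 and 0.00047). For Laptm5 the course difference was -1.33, but 0.039 with its brightest probe set without a suffix. In the Th17 list limma called 0 of 12 course differences, against 1.8% of all genes (0 with the replicate block, against 3.74%). At such shares a count of 0 in 12 genes says little about the list.

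The course difference was called for 39 named genes, of which 24 stayed called without any single array and all 39 with the replicate block. The block called 680 genes in place of 328, and some of the 39 were picked by their equal-numbered pairs. Keeping all 39 was therefore partly built in. Over all settings that include the HF arrays, an adjusted p under 0.01 among them, 14 stayed called in each. Of the other 15, Satb1 lost its call without HF 6 h replicate 1 (0.65, adjusted p = 0.056) and Ddias without HF 3 h replicate 1 (-1.19, adjusted p = 0.051). Tbx21 (0.73 to 0.76, highest adjusted p = 0.072) and Pdia4 (-0.66 to -0.65, 0.067) lost it without MAZ1310 6 h replicate 2, HF 3 h replicate 1 or HF 6 h replicate 1. Gpr174 (-1.48 to -1.38, 0.064) lost it without MAZ1310 6 h replicate 2 or HF 3 h replicates 1 or 3. Ifi213 (1.12 to 1.19, 0.061) lost it without MAZ1310 6 h replicates 2 or 3, HF 3 h replicate 1 or HF 6 h replicate 1. The rest lost it without any of 6 to 11 of the 12 arrays: Dnajb1 (0.51 to 0.57, 0.074), Ccr7 (-1.20 to -1.02, 0.098), Ccr8 (-1.05 to -0.89, 0.11), Cd52 (-1.29 to -1.15, 0.093), Cdkn1a (-0.64 to -0.56, 0.10), Tnfrsf18 (-0.78 to -0.65, 0.12), Hk2 (0.85 to 1.03, 0.097), Socs3 (0.80 to 1.00, 0.14) and Mcm5 (-0.52 to -0.43, 0.14).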

How the data were processed

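Linear intensity per probe set had been deposited for 12 arrays. RMA is the method named in the submitters' processing notes; its version, a genome build and scan dates are not stated there. Here log2 was taken, and of 45101 probe sets the 34945 with a single gene symbol were kept, the one with the highest mean over 12 arrays standing for each of 18193 genes. The 4 group means were estimated over 12 arrays by lmFit and eBayes of limma 3.58.1 (R 4.3.3), which also gave the 95% intervals. Adjusted p-values in the text are limma's unless a permutation test is named. Alternatives were other probe set rules, array normalization and weights, the replicate block, an actin covariate, a filter on dim genes and each array left out in turn.

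Members, the 34 gene lists and 6 marker lists were chosen with earlier results of these data known. Lists share genes, and 53 list entries had no match and were not analysed here. Named genes were the 15 largest called changes each way without overlap between times, and 4 called members at most from each list. Where no member of a list was called, its 2 largest changes were taken. A fixed set of T cell genes and the 8 largest called course differences each way were added. The latter came only from genes whose 3 HF changes in equal-numbered pairs all lay on one side of the 3 MAZ1310 changes. Clone names kept their rank unnamed. Promoter sequences are from RefSeq (GRCm38.p6).

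The labels number the replicates without saying what equal numbers share. Deviations of equal-numbered arrays correlated at 0.0289 to 0.252 between the 2 times of MAZ1310, where 2 of 3 passed 0.1, so they were not taken to pair these 2 groups. Between HF and MAZ1310 the correlations were 0.242 to 0.381 for the 3 h arrays and 0.287 to 0.391 for those at 6 h. Across times they were 0.322 to 0.502 within HF, 0.189 to 0.325 between MAZ1310 at 3 h and HF at 6 h, and 0.167 to 0.264 between MAZ1310 at 6 h and HF at 3 h. Blocked values therefore stand beside the counts of course differences.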

Additional observations from a re-analysis of the deposited data

Results flagged for a closer look

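Each gene here was singled out because its change from 3 h to 6 h differed between HF and MAZ1310 by limma's test of the difference itself, adjusted over all genes. Values are the HF course minus the MAZ1310 course on the log2 scale, and no explanation was tested. The difference was above 0 for genes that fell further with MAZ1310 or rose further with HF. Among interferon-inducible genes it was 1.86 for Gbp7, 1.73 for Gbp8, 1.54 for Mndal, 1.44 for Irgm1, 1.41 for Gbp6, 1.26 for Ifi213 (0.14 with the mean of its probe sets), 1.25 for Iigp1 and 1.16 for Igtp. It was 0.92 for Socs3, 0.82 for Il6st, 0.79 for Tbx21, 0.67 for Satb1, 0.95 for Mnt, 1.69 for Slc14a1 and 0.55 for Dnajb1. Among genes of amino acid supply and stress it was 2.91 for Cth, 1.91 for Atf5, 1.66 for Slc7a3 and 1.22 for Slc6a9, and it was 1.60 for Zbed5, 1.55 for Cyb5r1 and 1.00 for Hk2.

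The difference was below 0 for genes that rose further with MAZ1310 or fell further with HF. It was -1.85 for Ddit4, -1.62 for Ier3, -1.60 for Psrc1, -1.49 for Gcdh, -1.27 for Ddias and -1.24 for Cd52. Among receptors it was -1.55 for Gpr174, -1.22 for Ccr7, -1.02 for Ccr8 and -0.72 for Tnfrsf18. Among genes that p53 can induce it was -1.15 for Phlda3, -0.84 for Ei24 and -0.62 for Cdkn1a. It was -0.85 for Pdia3, -0.71 for Pdia4, -0.48 for Mcm5 and -1.33 for Laptm5.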

How the results depend on the processing

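Under 26 settings, 118 of 165 called named genes stayed called in each, and 151 stayed called without any single array. The time comparison called 3595 genes. Taking every probe set on its own gave 5705 calls, 3485 higher and 2220 lower, with 286 and 355 of at least 2-fold. The replicate block with the actin 3' to 5' difference gave 1883, 1002 higher and 881 lower, and the replicate block alone gave 4254 on 12 arrays, while equal-numbered arrays of the 2 times deviated together in 2 of 3 cases and not every array correlated best with its own number, a hint from the data only. Without the arrays numbered 2 of all groups, 247 genes were higher by at least 2-fold, and leaving out single arrays gave 146 to 266. The cause of these shifts was not tested.

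The count of 328 course differences (161 higher, 167 lower) moved more. Array weights gave 690 (338 and 352), the replicate block 680 (322 and 358), the block with the actin difference 819 (344 and 475), and an adjusted p under 0.01 gave 74 (42 and 32). Without the arrays numbered 2 it was 38 (19 and 19). Leaving out single arrays gave 129 to 602 (72 to 386 higher, 53 to 216 lower). Averaging the probe sets of a gene gave 109 lower and the brightest probe set without a suffix 103 lower. All 39 called course differences of named genes were also called with the replicate block, which is partly built in, since the block called more genes and some of the 39 were picked by equal-numbered pairs. Of the 39, 10 were lost with averaged probe sets (adjusted p = 0.051 to 0.92, the highest for Ifi213) and 20 without the arrays numbered 2.

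These signs turned, in the time comparison unless named otherwise. With the brightest probe set without a suffix the values were 0.057 for Top2a, 0.12 for Slc2a3, -0.053 for Idh2, -0.063 for Farsb, 0.11 for Prf1 and, for the course difference of Laptm5, 0.039. With the mean of probe sets they were 0.13 for Ccnd2 and 0.094 for Tfrc. In the fit with both the block and that actin term they were 0.014 for Slc4a1, 0.0081 for Ccnd2, -0.082 for Cdkn1b, 0.0064 for Slc2a1, -0.21 for Gpr174 and 0.15 for Slc7a3, and with the actin difference alone -0.016 for Il17a, 0.047 for Gata3 and 0.082 for Slc7a3. Leaving out single arrays gave a range of -0.088 to 0.55 for Il17a, -0.22 to 0.18 for Gata3, -0.075 to 0.80 for Cdkn1b, -0.073 to 0.26 for Hk2, -0.087 to 0.021 for Laptm5 and -0.21 to 0.095 for Slc7a3. The 3 arrays per group and the lack of a detection measure limit what can be said of dim genes.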
